A study of Mus musculus with 2 samples.

Results

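Long-chain fatty acids reach metabolism only after they have been bound, moved and activated, and 10 genes of these steps were followed in mouse peritoneal macrophages, out of 50608 rows in the table. They were picked by symbol: the long-chain acyl-CoA synthetases Acsl1, Acsl3, Acsl4, Acsl5 and Acsl6, the fatty acid transport proteins Slc27a1 and Slc27a4, and the fatty acid binding proteins Fabp3, Fabp4 and Fabp5. The study sequenced 2 libraries, 1 from macrophages given the LXR agonist GW3965 (liver X receptors are nuclear receptors for oxysterols), and 1 from macrophages given the solvent DMSO. Per the labels, both came from C57BL6J mice, males and females pooled, at a stage recorded as E15.5. That stage is given as recorded and may be an error of the labels. The sources used here do not give the dose, the duration of treatment or the number of animals in a pool. The GW3965 values come from a column whose heading shares only its first letters with the label of that sample. Neither group has a replicate, so the differences below stand without a check of the spread between cultures or animals.

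Acyl-CoA synthetases join a free fatty acid to coenzyme A at the cost of ATP, which traps it in the cell and commits it to oxidation, to phospholipids, to triglycerides or to cholesterol esters. The SLC27A proteins combine transport across membranes with a synthetase activity of their own. Fatty acid binding proteins are small cytosolic carriers that shuttle the insoluble fatty acids between membranes, enzymes and nuclear receptors. In macrophages these proteins are known for their part in foam cell formation, and LXRs are known to raise the synthesis and desaturation of fatty acids. ACSL3 has been described as an LXR-responsive gene in human placental cells.

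Acsl3 and Acsl4 were the members with the highest GW3965 to DMSO ratios, and the bases just before their start sites are shown because they are the genes on which the result turns. Each line holds the 250 bases before the RefSeq start on the gene's own strand, 5′ to 3′, of GRCm38.p6. The stretch of Acsl3 is chr1:78657575-78657824 on the plus strand and that of Acsl4 is chrX:142390536-142390785 on the minus strand. Capitals mark a match to DR4, the direct repeat of AGGTCA with any 4 bases between, which LXR is known to bind as a partner of RXR, allowing up to 2 mismatches in the 12 fixed letters on either strand.
Acsl3: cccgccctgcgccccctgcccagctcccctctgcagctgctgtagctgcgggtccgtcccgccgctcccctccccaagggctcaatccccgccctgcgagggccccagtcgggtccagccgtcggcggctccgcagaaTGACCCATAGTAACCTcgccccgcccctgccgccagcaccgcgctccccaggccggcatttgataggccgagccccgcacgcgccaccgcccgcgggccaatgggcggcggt
Acsl4: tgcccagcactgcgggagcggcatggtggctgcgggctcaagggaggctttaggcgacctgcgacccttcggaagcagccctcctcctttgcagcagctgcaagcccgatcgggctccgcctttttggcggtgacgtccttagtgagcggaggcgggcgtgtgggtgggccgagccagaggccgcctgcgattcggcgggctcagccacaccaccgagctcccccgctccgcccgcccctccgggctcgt
The Acsl3 stretch holds 1 such match, on the minus strand with 2 mismatches, which begins 112 bases before the start. The Acsl4 stretch holds no letters that match. DR4 was found at that tolerance in 2.57% of 32851 RefSeq promoters of the same length. Counted by gene, 2.96% of 27025 genes had a match before at least 1 of their starts. Of the members, 8 have a promoter in the table (not Fabp4 and Fabp5), and besides Acsl3 only Acsl6 matched, with TGACCTTGTGTGGCCT, 1 mismatch on the minus strand, 189 bases before the first of its 3 starts (chr11:54303574-54303823). DR1 is AGGTCA repeated with any 1 base between, 2 mismatches allowed, and is the element known for PPAR. None was found before any start of the 8 members with a promoter, against 3.24% of promoters and 3.72% of genes. SRE-1 (ATCAC followed at once by CCCAC, 1 mismatch allowed), the element known for SREBP, matched only before the downstream start of Acsl1 (chr8:46490716-46490965) as GTGGGGTGAC. It matched in 1.65% of promoters and 1.89% of genes. A match is a description of letters, not of binding, and both the Acsl3 and the Acsl4 stretch are rich in G and C, at 75.6% and 70.8%.

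The levels are FPKM as deposited, fragments per kilobase of gene scaled to depth, so they can be compared between genes. The depth the authors scaled by was recovered as 75287120 reads for GW3965 and 101866062 reads for DMSO. A row counted as measured at a mean of at least 1 FPKM, which 11889 rows and 9 of the 10 members reached. Acsl6 was the member below it. The 9 ran from 4.06 to 283 FPKM in GW3965 and from 4.20 to 228 FPKM in DMSO, with medians of 25.6 FPKM in GW3965 and 21.5 FPKM in DMSO, against medians of 4.35 FPKM in GW3965 and 3.54 FPKM in DMSO over all measured rows. Fabp5 was highest in both libraries and lay above 99.3% of measured rows in each. In GW3965 the order below it was Acsl4, Slc27a1, Acsl5, Fabp4, Acsl3, Slc27a4, Acsl1, Fabp3 and Acsl6, and in DMSO it was Slc27a1, Fabp4, Acsl4, Acsl5, Slc27a4, Acsl3, Fabp3, Acsl1 and Acsl6. Neighbours in that order such as Acsl4 and Acsl5 in DMSO, at 22.1 FPKM for Acsl4 and 21.5 FPKM for Acsl5, cannot be called apart with 1 library.

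**Figure D1:**
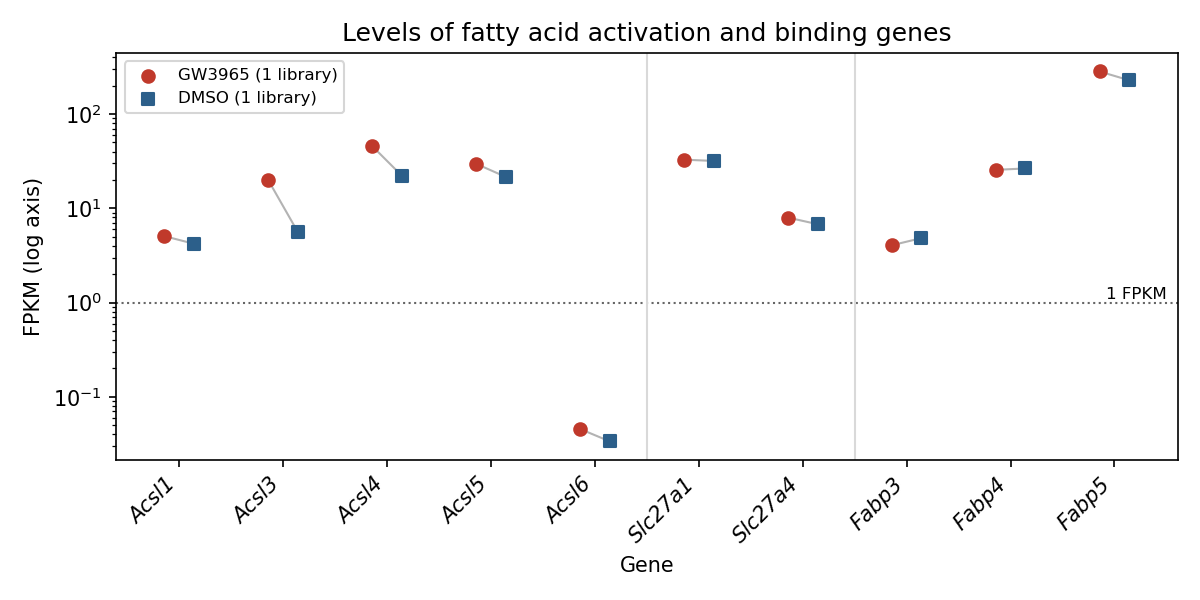
FPKM on a log axis of the 10 genes in the GW3965 library (circles) and the DMSO library (squares), 1 library each, with synthetases, transport proteins and binding proteins set apart by vertical lines and a dotted line at 1 FPKM. On this axis the widest gaps between the libraries among the measured genes are those of Acsl3 (19.8 FPKM in GW3965 and 5.56 FPKM in DMSO) and Acsl4 (45.7 FPKM in GW3965 and 22.1 FPKM in DMSO), and Acsl6 lies below 0.1 FPKM in both.

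The 10 genes were chosen with earlier results of these data known, so the counts describe them and test nothing. At 1.5-fold on the scale with 1 FPKM added, 2 of the 9 measured members were higher in GW3965 and 0 were lower. Over all measured rows 3.46% were higher and 0.0757% lower by that limit. The same 2 genes, Acsl3 and Acsl4, were also higher after centring, that is after subtracting the median log2 ratio of all measured rows, when 1.38% of rows were higher and 0.336% lower. As deposited, both genes were past 2-fold as well, as were 0.984% of rows, with Acsl4 just past it at a log2 ratio of 1.01. After centring Acsl4, at 0.77, was short of 2-fold. The median log2 ratio of the 9 members was 0.22, close to the 0.24 of all measured rows. The other 7 members were spread on both sides of that median: Slc27a4, Acsl1 and Fabp5 had a log2 ratio above that of 39.3%, 43.7% and 67.5% of measured rows, and Acsl5 above that of 90.4%. Fabp3, Fabp4 and Slc27a1 were near the low end of the table, above 1.02%, 4.0% and 9.98% of measured rows. In this comparison the FPKM ratio was above 1 for 7 members and below 1 for Fabp3 and Fabp4, whereas after centring 4 members were above 0 and 5 below.

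The long-chain acyl-CoA synthetases differed from each other. Acsl3, an enzyme of the endoplasmic reticulum and of lipid droplets that is known for its part in droplet formation, had 19.8 FPKM in GW3965 and 5.56 FPKM in DMSO. These values rest on 6113 reads in GW3965 and 2318 reads in DMSO, and the ratio was 3.57 (95% counting interval 3.40 to 3.74). Its log2 ratio of 1.67, or 1.42 after centring, was exceeded by 33 of the 11889 measured rows. The gene lies at chr1:78657825-78707743 on the plus strand of GRCm38 and is annotated as protein coding.

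Acsl4, which prefers arachidonic and other polyunsaturated acids and is known as a determinant of ferroptosis, had 45.7 FPKM in GW3965 and 22.1 FPKM in DMSO. With 19093 reads in GW3965 and 12522 reads in DMSO the ratio was 2.06 (2.02 to 2.11). The log2 ratio was 1.01, or 0.77 after centring, and 113 measured rows had a higher one. Acsl4 lies at chrX:142317993-142390535 on the minus strand. Its difference in level was the largest of the 5 synthetases, 23.5 FPKM more in GW3965 than in DMSO, against 14.3 FPKM for Acsl3, although the ratio of Acsl3 was the larger.

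Acsl5, found on mitochondria and the endoplasmic reticulum and abundant in intestine, had 29.7 FPKM in GW3965 and 21.5 FPKM in DMSO. Its ratio was 1.38 (1.34 to 1.41) and its log2 ratio 0.44, or 0.20 after centring, short of 1.5-fold. When both libraries were scaled to the same sum of FPKM its log2 ratio was 0.70, past that limit, which made 3 members higher on that scale. Acsl1, the main synthetase of fat and heart and one that inflammatory stimuli are known to raise in macrophages, had 5.06 FPKM in GW3965 and 4.20 FPKM in DMSO, a ratio of 1.21 (1.15 to 1.26). After centring its log2 ratio was -0.02, so that its sign depended on the scaling. Acsl6, an enzyme of brain that handles docosahexaenoic acid, had 0.0456 FPKM in GW3965 and 0.0337 FPKM in DMSO, an estimated 27 reads in each library. Its ratio of 1.35 (0.764 to 2.40) is that of the depths, and a difference was not detectable at this depth.

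**Figure D2:**
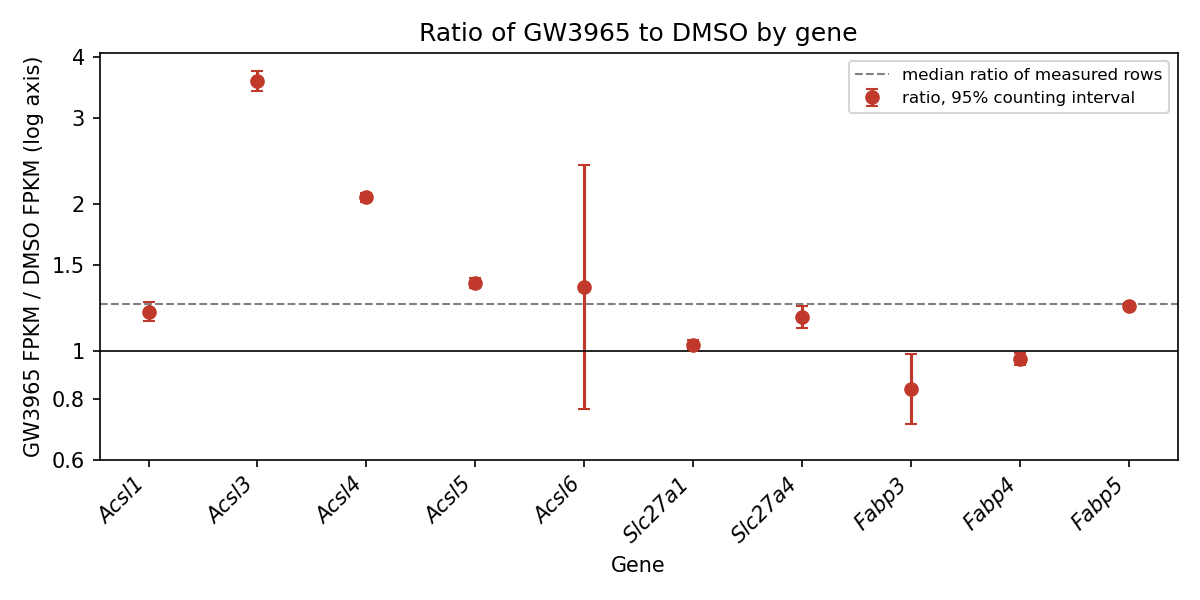
Ratio of GW3965 FPKM to DMSO FPKM on a log axis for the 10 genes, with exact 95% intervals that cover counting error only. The solid line is at 1 and the dashed line at the median ratio of measured rows, 1.25. Acsl3 and Acsl4 stand above the others at 3.57 and 2.06, and the interval of Acsl6 crosses both lines.

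The makeup of the synthetase transcripts also differed between the libraries. The 5 genes summed to 100.2 FPKM in GW3965 and 53.4 FPKM in DMSO, a ratio of 1.88, and without Acsl3 and Acsl4 to 34.8 FPKM in GW3965 and 25.8 FPKM in DMSO, a ratio of 1.35. Acsl3 made up 19.8% of the sum in GW3965 and 10.4% in DMSO, and Acsl4 45.5% in GW3965 and 41.4% in DMSO. Acsl5 held 29.6% in GW3965 and 40.3% in DMSO, and Acsl1 5.05% in GW3965 and 7.86% in DMSO. In DMSO, Acsl4 and Acsl5 stood at nearly the same level, with 1.03 times as much Acsl4, whereas in GW3965 there was 1.54 times as much. Acsl3 stood at 0.669 times the level of Acsl5 in GW3965 and 0.258 times in DMSO. Ratios within a library show unequal change between genes and do not depend on how the libraries were scaled.

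**Figure D3:**
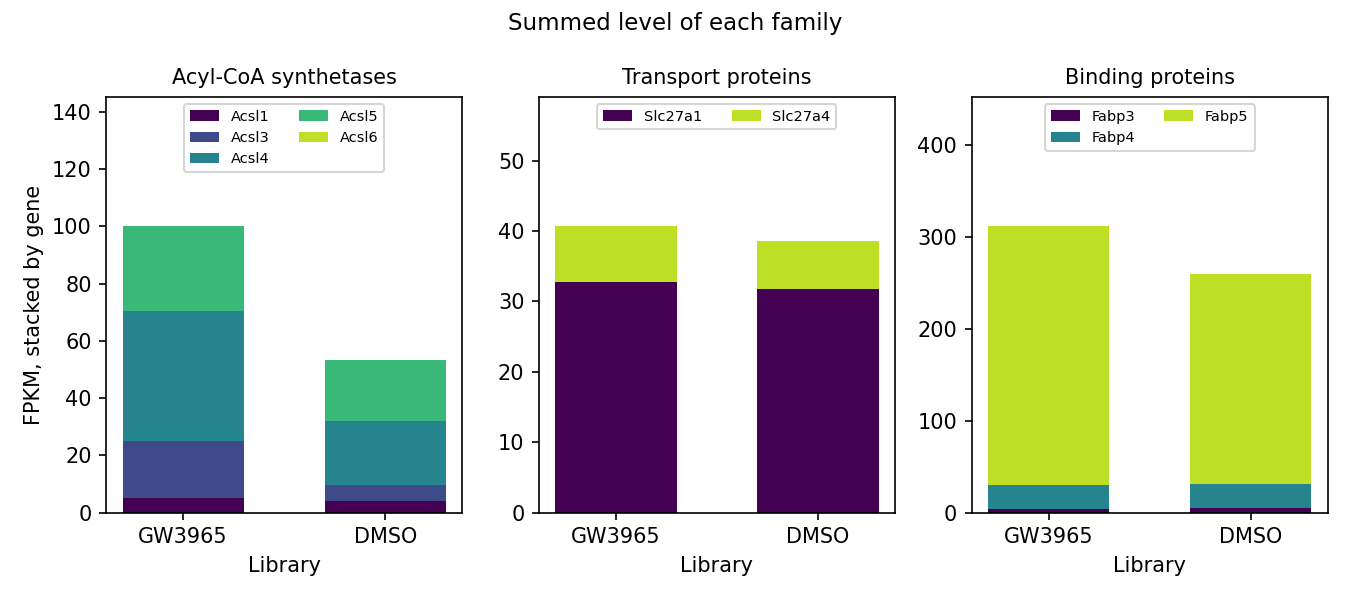
Summed FPKM of each family in the GW3965 library (left bar) and the DMSO library (right bar), stacked by gene, 1 library each, with a separate FPKM axis per panel. The synthetase bar is 100.2 FPKM high in GW3965 and 53.4 FPKM in DMSO, the transport protein bars are 40.8 FPKM in GW3965 and 38.6 FPKM in DMSO, and the binding protein bars, mostly Fabp5, are 312 FPKM in GW3965 and 259 FPKM in DMSO.

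The transport proteins differed little between the libraries. Slc27a1, the FATP1 of muscle and fat that insulin is known to bring to the cell surface, had 32.8 FPKM in GW3965 and 31.8 FPKM in DMSO. Its ratio of 1.03 (1.01 to 1.05) gave a log2 ratio of 0.04, and -0.20 after centring. At the fewest reads its values allow, 6554 in GW3965 and 8603 in DMSO, the interval would be 0.998 to 1.06 and would include 1. Slc27a4, the FATP4 needed for the skin barrier, had 7.98 FPKM in GW3965 and 6.79 FPKM in DMSO, a ratio of 1.18 (1.11 to 1.24) with a log2 ratio of 0.21, and -0.04 after centring. The sign of both thus depended on the scaling. There was 4.11 times as much Slc27a1 as Slc27a4 in GW3965 and 4.69 times as much in DMSO.

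The binding proteins had both the highest and, in GW3965, the lowest level among the measured members. Fabp5, the epidermal type that macrophages also make, had 283 FPKM in GW3965 and 228 FPKM in DMSO, on 76401 reads in GW3965 and 83366 reads in DMSO. The ratio of 1.24 (1.23 to 1.25) was close to the median ratio of measured rows, 1.25, and the centred log2 ratio was 0.07. Fabp4, the carrier of adipocytes and macrophages also called aP2, had 25.6 FPKM in GW3965 and 26.5 FPKM in DMSO, on 8538 reads in GW3965 and 11963 reads in DMSO. Its ratio was 0.966 (0.939 to 0.993) and its log2 ratio -0.05, or -0.29 after centring, with 476 measured rows lower. Fabp4 and Fabp5 lie 187480 bases apart on chromosome 3, at chr3:10204088-10208576 on the minus strand and chr3:10012548-10016607 on the plus strand. There was 11.1 times as much Fabp5 as Fabp4 in GW3965 and 8.61 times as much in DMSO.

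Fabp3, the heart type, had the lowest ratio of the members, with 4.06 FPKM in GW3965 and 4.83 FPKM in DMSO. An estimated 240 reads in GW3965 and 387 in DMSO gave a ratio of 0.839 (0.711 to 0.988). Were the reads the fewest the values allow, 80 in GW3965 and 129 in DMSO, the interval would be 0.627 to 1.12 and would include 1. The log2 ratio was -0.21, or -0.45 after centring, short of 1.5-fold on both scales, and 121 measured rows had a lower one. Scaled to the same sum of FPKM, the log2 ratios of Fabp3 and Fabp4 were 0.01 and 0.21, so the direction of both flips with the scaling.

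**Figure D4:**
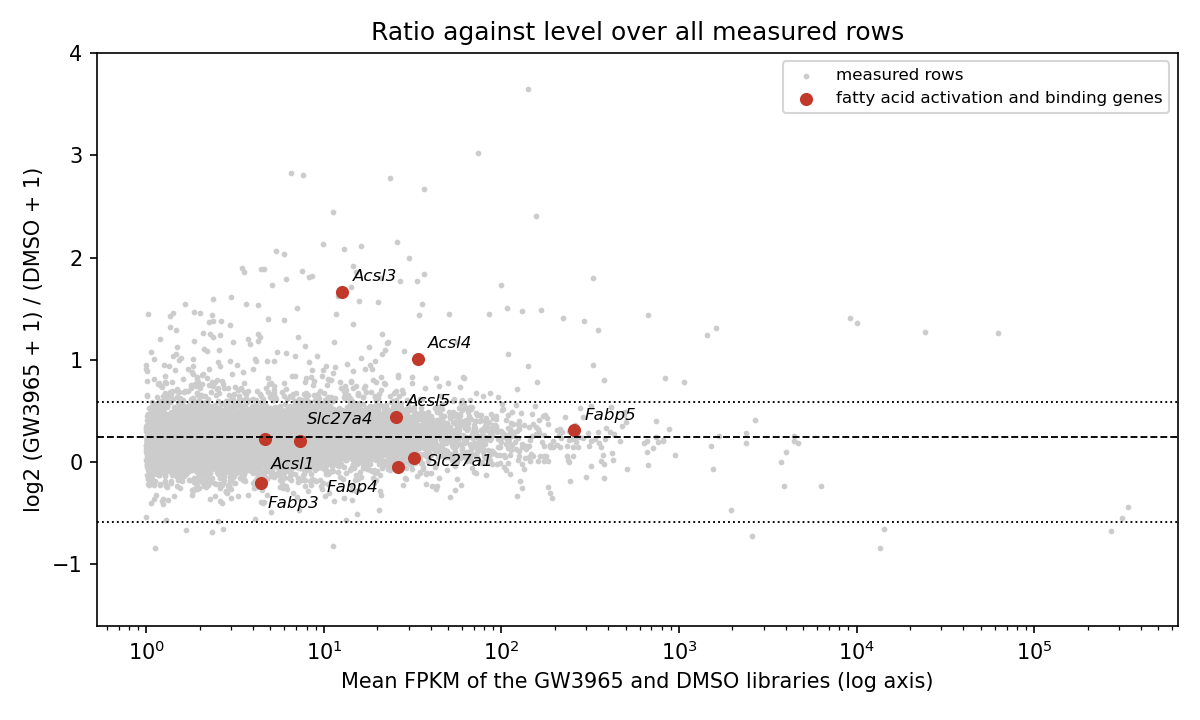
Log2 ratio with 1 FPKM added against mean FPKM (log axis) for 11889 measured rows (grey) and the 9 measured members (red). The dashed line is the median of all measured rows, 0.24, and dotted lines mark 1.5-fold; Acsl3 (1.67) and Acsl4 (1.01) lie above the upper one, and the other 7 lie between the dotted lines.

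The members were also set beside rows of a like level, a description added after the data were seen. Among 986 measured rows with a mean within 1.25 times that of Acsl3, the 5th to 95th percentile of the centred log2 ratio spanned -0.25 to 0.33, against 1.42 for Acsl3. For the 372 rows near Acsl4 the span was -0.26 to 0.30, against 0.77. Fabp3 and Fabp4, at -0.45 and -0.29, were below the ranges of their neighbours in level, which began at -0.26 and -0.25. The rows were matched on level and not on reads, and Fabp3 had an estimated 240 reads in GW3965 and 387 in DMSO. Acsl1, Acsl5, Slc27a1, Slc27a4 and Fabp5 lay within theirs.

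Some members share bases with other annotated genes, and the sources used here do not say how such reads were assigned. Utp14b, a gene whose product acts in ribosome assembly, overlaps Acsl3 on the same strand (chr1:78658038-78671512). Utp14b had 10.9 FPKM in GW3965 and 3.19 FPKM in DMSO, on an estimated 5838 reads in GW3965 and 2310 reads in DMSO. Its ratio was 3.42 (3.26 to 3.59), close to that of Acsl3. With the reads of both rows added, 11951 in GW3965 and 4628 in DMSO, the ratio was 3.49. Of the 100-base windows of Acsl3 transcripts 2.43% also occur in Utp14b, and reads from them cannot be told apart. Acsl5 overlaps Zdhhc6 on the opposite strand, and 1.98% of its windows are also in that gene, which had 7.59 FPKM in GW3965 and 6.21 FPKM in DMSO. Fabp3 shares 21.7% of its windows with its processed copy Fabp3-ps1. That row had 0.427 FPKM in GW3965 and 0.0351 FPKM in DMSO, an estimated 18 reads in GW3965 and 2 reads in DMSO with a ratio of 12.2 (2.92 to 108). With the reads of the copy added, the ratio of Fabp3 was 0.897. Acsl1 shares 8.45% of its windows with Gm45244 on the opposite strand, and Fabp5 2.19% with processed copies. Acsl6 shares 0.0189% with Gm12224 on the opposite strand, and Acsl4, Slc27a1, Slc27a4 and Fabp4 share no such window. These overlapping genes were named for their position.

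The other genes of the pathway were read by lists, which were chosen with earlier results of these data known. Over all measured rows 3.46% were higher by 1.5-fold as deposited and 0.0757% lower. After centring these shares were 1.38% and 0.336%. Of 13 further acyl-CoA synthetases 5 were measured, 1 of them higher by 1.5-fold and 0 lower. It was Acss2, which activates acetate, with 2.08 FPKM in GW3965 and 1.02 FPKM in DMSO, and it was short of the limit after centring, with a log2 ratio of 0.37. Acss1, the mitochondrial acetate enzyme, had 10.6 FPKM in GW3965 and 8.08 FPKM in DMSO. The median log2 ratio of the 5 was 0.18. Of 4 further SLC27A genes only Slc27a6 was measured, with 2.57 FPKM in GW3965 and 2.93 FPKM in DMSO, and of 12 further binding proteins of fatty acids and retinoids only Fabp7, the brain type, with 2.61 FPKM in GW3965 and 1.41 FPKM in DMSO. The log2 ratio of Fabp7 was 0.58, just under the limit, and 0.34 after centring.

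Acyl-CoA thioesterases, which undo the activation, had 6 of 15 genes measured and none past 1.5-fold in either direction, with a median log2 ratio of 0.18. Acot9 had the highest of them, with 14.8 FPKM in GW3965 and 10.4 FPKM in DMSO. Acyl-CoA binding proteins had 5 of 7 measured, likewise none past the limit, with a median of 0.20. Dbi, the main cytosolic acyl-CoA binding protein, had 64.1 FPKM in GW3965 and 46.0 FPKM in DMSO, a ratio of 1.39 (1.35 to 1.44).

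The list named fatty acid supply gave the widest spread, and it also holds desaturases, which act on acyl-CoA. Over all measured rows 3.46% were higher and 0.0757% lower as deposited, and 1.38% and 0.336% after centring. Of 11 measured genes of this list, chosen with earlier results known, 5 were higher and 0 lower, with a median log2 ratio of 0.39. The desaturases Scd1 and Scd2, the fatty acid synthase Fasn and the lipoprotein lipase Lpl had ratios of 8.62, 5.38, 4.82 and 3.50. The fifth was the uptake receptor Cd36, with 484 FPKM in GW3965 and 277 FPKM in DMSO, picked after its value was seen. After centring 4 were higher, without Cd36, and 1 was lower, the monoglyceride lipase Mgll, with 10.5 FPKM in GW3965 and 16.1 FPKM in DMSO, picked in the same way. Of 13 other measured enzymes that use acyl-CoA, 3 were higher and 0 lower, and 2 were higher after centring, with a median of 0.30. They were Lpcat3, which puts polyunsaturated acyl chains into phospholipids (30.7 FPKM in GW3965 and 9.69 FPKM in DMSO), the elongase Elovl5 (26.3 FPKM in GW3965 and 12.8 FPKM in DMSO) and, as deposited only, Gpam, which starts glycerolipid synthesis (4.92 FPKM in GW3965 and 2.90 FPKM in DMSO). Cpt1a, which sends acyl chains into mitochondria, had 22.2 FPKM in GW3965 and 15.0 FPKM in DMSO.

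Over all measured rows 3.46% were higher as deposited and 1.38% after centring. Among 8 measured receptors and factors known to act on these genes 1 was higher, as it was after centring, and 0 were lower. It was Srebf1, the SREBP-1 gene, with 33.0 FPKM in GW3965 and 8.74 FPKM in DMSO, a ratio of 3.77. Pparg, which is known to drive Fabp4, had 26.9 FPKM in GW3965 and 23.7 FPKM in DMSO, a ratio of 1.14. Nr1h3, LXR alpha, had 10.1 FPKM in GW3965 and 7.80 FPKM in DMSO, and Rxra 13.7 FPKM in GW3965 and 12.4 FPKM in DMSO. Of the 9 listed neighbours of Fabp4 and Fabp5 on chromosome 3, 3 were measured and none passed the limit, with Impa1 at 8.59 FPKM in GW3965 and 7.08 FPKM in DMSO and Snx16 at 5.44 FPKM in GW3965 and 4.15 FPKM in DMSO. Fabp9, Fabp12 and Pmp2, the family members of the same cluster, picked after their values were seen, were below 0.2 FPKM in both libraries.

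**Figure D5:**
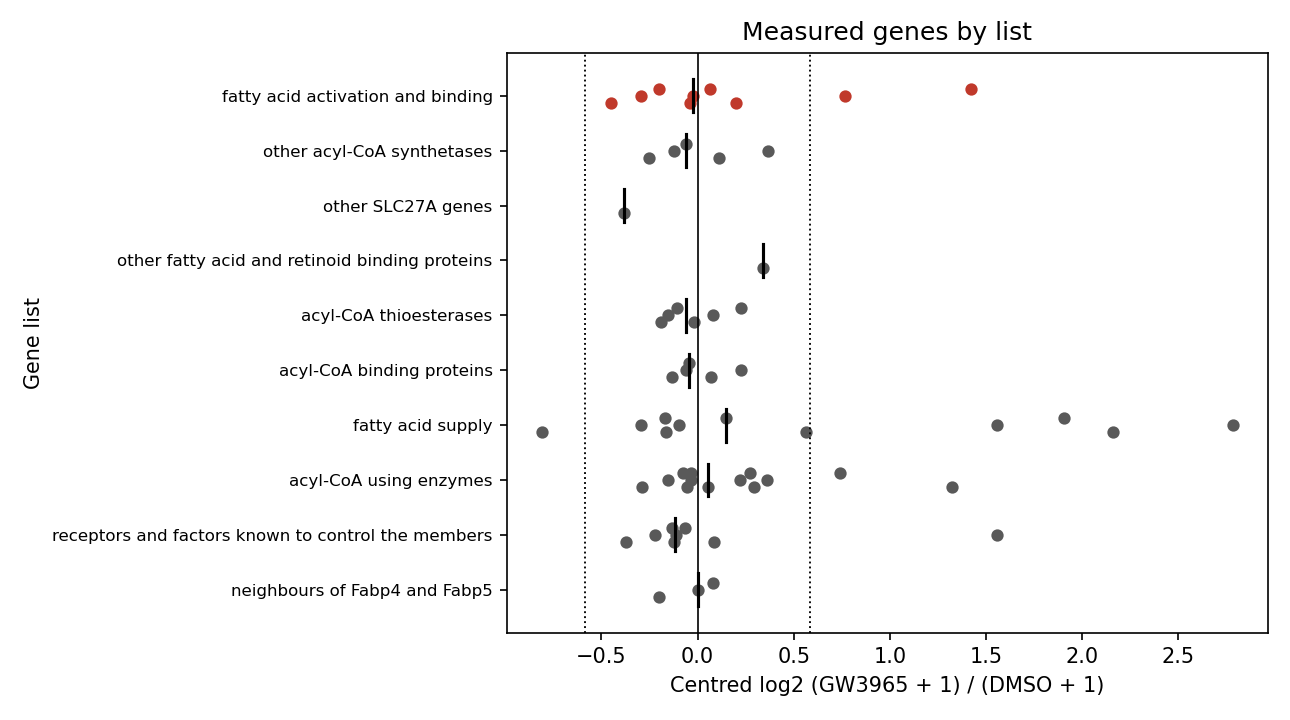
Centred log2 ratio, with 1 FPKM added, of each measured gene of the 9 members (red, top) and of 9 pathway lists (grey), with a black bar at each median and dotted lines at 1.5-fold. The members run from -0.45 to 1.42, and the genes listed under fatty acid supply reach from -0.81 to 2.78.

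The libraries carried the marks of macrophages. Of 10 macrophage markers 9 were measured, led by the lysozyme gene Lyz2 with 4822 FPKM in GW3965 and 4052 FPKM in DMSO. As deposited 1 of the 9 was higher by 1.5-fold, as it was after centring, and 0 were lower. Over all measured rows 3.46% were higher as deposited. It was Mertk, picked after its value was seen, with 13.9 FPKM in GW3965 and 6.79 FPKM in DMSO. Timd4, a marker of resident cells picked in the same way, was at 0.135 FPKM in GW3965 and 0.0715 FPKM in DMSO. Abca1, the best known LXR target, had a ratio of 13.1. Fabp4 and Acsl1 are also adipocyte genes, and of 7 adipocyte markers 1 was measured, Lipe, at 1.14 FPKM in GW3965 and 1.03 FPKM in DMSO, and the list summed to 1.53 FPKM in GW3965 and 1.23 FPKM in DMSO. Fabp4 is also made by endothelium, whose 7 markers had 2 measured and summed to 5.31 FPKM in GW3965 and 5.43 FPKM in DMSO, led by Vwf. Muscle markers, listed because of Fabp3, summed to 0.404 FPKM in GW3965 and 0.193 FPKM in DMSO, with 0 of 7 measured. Erythroid (Alas2 highest), epithelial (Krt8 highest), neutrophil (S100a8 highest) and B cell (Cd79a highest) lists summed to at most 4.03 FPKM in GW3965 and 3.52 FPKM in DMSO. Mesothelial and fibroblast markers, 5 of 7 measured, summed to 20.7 FPKM in GW3965 and 13.0 FPKM in DMSO, with a median log2 ratio of 0.54. The fibroblast gene Dcn, with 11.6 FPKM in GW3965 and 6.91 FPKM in DMSO, was higher by 1.5-fold as deposited, the 1 gene of the list past the limit, and 0 were past it after centring. Of the other 6, named after their values were seen, the mesothelial genes Upk3b and Lrrn4 had 2.51 FPKM and 2.0 FPKM in GW3965, against 1.38 FPKM and 1.07 FPKM in DMSO. Msln and Wt1, also mesothelial, had 0.369 FPKM and 0.390 FPKM in GW3965, against 0.263 FPKM and 0.297 FPKM in DMSO. Pdgfra and Col1a1, genes of fibroblasts, had 2.09 FPKM and 1.75 FPKM in GW3965, against 1.43 FPKM and 1.61 FPKM in DMSO. The part of these cells in the results for Acsl3 and Acsl4 was not tested. In bulk RNA, fewer cells of a type and less RNA per cell cannot be told apart.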

How the data were processed

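There was 1 RNA-seq library of peritoneal macrophages given GW3965 and 1 of macrophages given DMSO. The values are FPKM made and deposited by the authors in 1 table of 50608 rows. The submitters' processing notes name STAR 2.3.0, HTSeq 0.5.4p3 and the build GRCm38 (mm10). The sources used here do not give the annotation, the strand setting or the handling of reads that match several genes.

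The GW3965 column shares the opening letters of its name with the description of the GW3965 sample only and ends in letters that no label explains. Every statement on GW3965 rests on that match.

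FPKM values move in steps of 1 read, from which whole reads were recovered. Among 21210 rows between 0.02 and 0.3 FPKM in both libraries, 97.6% were ratios of whole reads, with up to 60 reads in DMSO and within the rounding of the sixth decimal, once the depths were set 1.353 apart. The share was 0.886% with that factor moved by 1%. The depths the authors divided by came out at 75287120 reads for GW3965 and 101866062 reads for DMSO, as the largest values at which lengths were often whole. Of 1500 rows 53.3% had a whole length (within 0.05 bases), against 11.4% with the depth moved by 1%. Depths 2 and 3 times lower gave 65.1% and 60.6%, with lengths longer by the same factor; at the depths used, Acsl3 had a length of 4096 bases, against 4357 exon bases in GENCODE M21. Where several read numbers were possible, the one whose length lay nearest to the exon length in GENCODE M21 was taken. The step was tested on simulated data with known depths, where the true lengths guided the choice between read numbers. The choice by the GENCODE M21 length was not tested, so reads with several solutions remain estimates. Ratios carry exact (Clopper-Pearson) 95% intervals that cover counting error only.

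The log2 ratio is log2 of (GW3965 FPKM + 1)/(DMSO FPKM + 1), which understates the change of low genes. Rows with a mean of at least 1 FPKM counted as measured, and 1.5-fold on that scale as higher or lower. With 1 library per group there is no test. The genes and the 18 lists (9 of pathway genes, 9 of cell markers) were chosen with earlier results of these data known. The rule for names was the 10 genes themselves, up to 4 measured genes of each pathway list with the largest absolute log2 ratio, the highest marker of each marker list, and rows named as copies. Genes outside this rule are marked in the text by how they were picked, apart from Abca1, named as a check of the agonist. Of 164 list entries 3 were matched by a RefSeq synonym and 3 had no row. Promoters are those of RefSeq (GRCm38.p6). The alternatives were pseudocounts of 0.1 and 0.5 FPKM, no filter or a mean of at least 5 FPKM, 3 other scalings, a 2-fold limit, and recovered reads. Calculations used scipy 1.17.1, numpy 2.4.6 and pandas 2.3.3 under Python 3.11.15, with matplotlib 3.10.9 for figures.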

Additional observations from a re-analysis of the deposited data

How the results depend on the processing

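No paired analysis was possible because there was only 1 library of each treatment. The count of 2 members higher in GW3965 was also found with pseudocounts of 0.1 and 0.5 FPKM, no filter on low values, a mean of at least 5 FPKM, centring, the same upper quartile and a 2-fold limit, and was 3 with the same sum of FPKM. The count of members lower was 0 under all 8. The median log2 ratio of the members, 0.22, was 0.31 at a mean of at least 5 FPKM, where fewer genes enter, -0.0223 after centring, -0.0249 at equal upper quartiles and 0.45 at equal sums of FPKM, scalings that shift every row. Of 79 values of single members 78 stayed on their side of the limit in use and 1 gained the call, Acsl5 with the same sum (0.70). With recovered reads the whole counting interval was past 1.5-fold for Acsl3 and Acsl4 and for none of the other 7 measured members. Of 223 values of genes named from the lists 209 stayed, 7 lost the call, 7 gained it and 0 reversed. The filter settings leave each log2 ratio as it was, and the 2-fold limit can only take a call away. Both counts thus include values that could not change. Leaving out Acsl4, Acsl3 made up 36.3% of the synthetase sum in GW3965 and 17.7% in DMSO. Depth limits Acsl6 and, through its few reads, Fabp3.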

Other observations

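Rows near the floor were shifted further than measured rows. The median ratio of GW3965 to DMSO FPKM was 1.92 over 22137 rows with a mean under 0.1 FPKM and a DMSO value above 0, and 1.25 over the 11889 measured rows. Acsl6, with a ratio of 1.35, lay below the first of these. Several nearly silent relatives of the members had higher ratios than Acsl6. Slc27a5, a transport protein of liver, had 0.143 FPKM in GW3965 and 0.0510 FPKM in DMSO, a ratio of 2.81 (1.40 to 5.93). Slc27a3 had 0.236 FPKM in GW3965 and 0.150 FPKM in DMSO, a ratio of 1.57 (1.03 to 2.42). The ratio of Slc27a2 was lower than that of Acsl6, at 1.11 (0.405 to 2.94). These Slc27a genes were picked after their values were seen.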
